A study of Rattus norvegicus with 24 samples.

Results

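The genes described here are 5 vascular signalling genes measured in microvessels of the rat brain cortex: Nrp1, Flt1, Tie1, Eng and Angpt2. They were taken by name, and every probe set whose only gene symbol in the platform annotation is among them was used, which gave 8 of the 31099 probe sets on the array, for 5 of 14218 genes. Nrp1 has 2 probe sets, Flt1 has 3, and Tie1, Eng and Angpt2 have 1 each. The RNA came from 3 groups of 8 samples, each hybridised to its own array. HAL rats had a portocaval anastomosis, a surgical link that carries portal blood past the liver, and 24 h later a ligation of the hepatic artery, which leaves an ischaemic liver in place. HEP rats had the same anastomosis and 24 h later a removal of the whole liver. Sham rats went through a fictitious surgery in 2 steps. All rats were killed by decapitation 8 to 12 h after their last surgery. The labels give no strain, age or sex, and do not say whether each sample came from its own rat, so the p-values measure the spread between samples. The comparisons ask how these genes differ between each form of acute liver failure and sham surgery, and between both forms.

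VEGF receptors and the angiopoietin–Tie system are both carried by endothelium. VEGF-A signals mainly through Kdr (VEGFR2) and drives growth and permeability of vessels. Nrp1 is a co-receptor that binds VEGF-A together with Kdr and also binds class 3 semaphorins, and Flt1 (VEGFR1) binds VEGF-A tightly and limits how much reaches Kdr. Angpt1 activates the receptor Tek (Tie2) and stabilises vessels, Angpt2 is released by endothelium and mostly opposes it, and Tie1 is an orphan receptor that pairs with Tek. Eng (endoglin) belongs to neither pathway: it is a co-receptor for TGF-beta and BMP ligands on endothelium, so the group of 5 is wider than VEGF and angiopoietin signalling.

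The table holds only the decimals of each log2 signal, not its integer part, and this sets what can be said. Cells carry 9 digits for signals under 10 and 8 digits from 10 upward. Digit count therefore gives the side of 10, except where a zero at either end of the decimals was lost. A probe set with 1 to 14 cells of 9 digits over the 24 arrays was taken to lie near 10. There 9 was added to the decimals of 9-digit cells and 10 to those of 8-digit cells, and shorter cells were left unread. Such a value is called a reading, in log2 units, and differences are between group means of readings. A signal of 11 or above also has 8 digits and would be read a whole unit too low. Of the 8 probe sets, 5 lay near 10: both of Nrp1 and those of Tie1, Eng and Angpt2. Nrp1 1370570_at had 14 cells of 9 digits, the upper limit of this range, so a lower limit would leave it out. A probe set of Flt1 had no cell of 9 digits and was taken to lie at 10 or above on every array, and its other 2 lay below 10. For these 3 the decimals can be compared only around a circle, on which a change of a whole unit is invisible and a change of more than 0.5 turns its sign. Levels of different probe sets cannot be compared.

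As a description only, since probe sets differ in brightness, marker genes were counted by whether any probe set of theirs had no cell of 9 digits. This held for 11 of 12 endothelial genes, with Tie1 as the remaining gene, near 10, and for 0 of 4 tip cell genes. It held for 2 of 7 pericyte, 2 of 5 smooth muscle, 4 of 6 perivascular fibroblast and 3 of 6 astrocyte genes. It held for 0 of 6 neuron, 0 of 5 microglia, 1 of 4 oligodendrocyte (Mbp) and 1 of 2 red cell genes (Hbb). Over the 3398 probe sets that could be read near or above 10, limma with Benjamini-Hochberg adjustment called 135 in HAL minus Sham (44 higher, 91 lower), 82 in HEP minus Sham (45 higher, 37 lower) and 0 in HAL minus HEP at an adjusted p of 0.05. After centring the arrays by their medians, the HAL calls split into 75 higher and 73 lower. In HAL minus HEP, 302 had an unadjusted p under 0.05. The arrays with the lowest median deviation of readings were HAL 2 (-0.13), Sham 3 and HEP 2 (-0.06 and -0.05 for the last 2). HAL 5 and HAL 6 were close to Sham 3 and HEP 2 (-0.05 each). Deviations were negative on every HAL array but HAL 7, and positive on every Sham array but Sham 3. In bulk RNA, fewer cells of a type and less RNA per cell cannot be told apart.

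Nrp1 fell in HAL microvessels on both of its probe sets. On 1370570_at the readings in HAL were 9.36, 9.67 and 9.86 (lowest, median and highest of 8 arrays), against 10.11, 10.38 and 10.67 in Sham. Every HAL array thus lay below 10, every Sham array lay above it, and the groups did not overlap. Means were 9.62 ± 0.18 in HAL and 10.41 ± 0.18 in Sham (SD, n = 8 each), a difference of -0.80 (95% interval -1.18 to -0.41, adjusted p = 0.0180 in limma). That is 0.576 of the Sham signal, as far as the integer parts of 9 and 10 hold. An exact permutation test, two-sided, gave p = 0.000155, the smallest that 8 against 8 arrays allow. The split of the digits at 10 fixes both the lack of overlap and this p-value, so neither is further support. Around the circle, where the integer parts are left out, the exact permutation test gave p = 0.0956, unadjusted. That test cannot see a change of a whole unit.

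**Figure D1:**
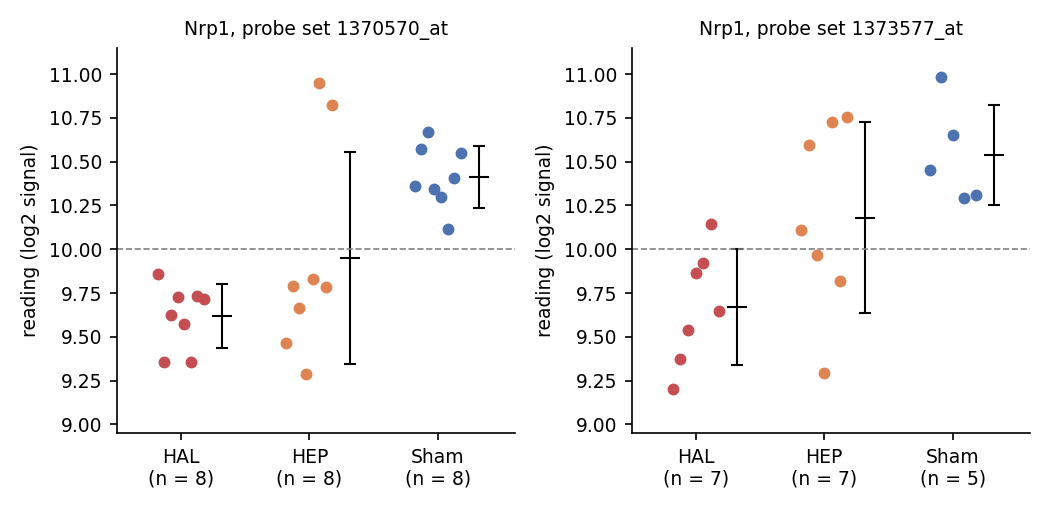
Readings of both Nrp1 probe sets (log2 signal, vertical axis) on each array of HAL, HEP and Sham, with the mean and SD in black and the level of 10 as a dashed line. On 1370570_at all 8 HAL arrays lie under the line and all 8 Sham arrays over it, while 6 HEP arrays lie under it and 2 far over it.

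The other probe set, 1373577_at, gave readings of 9.20, 9.64 and 10.14 (lowest, median and highest) on 7 HAL arrays, against 10.29, 10.45 and 10.98 on 5 Sham arrays. A single HAL array, number 7, lay above 10, and the arrays that could be read did not overlap. Means were 9.67 ± 0.33 in HAL (SD, n = 7) and 10.54 ± 0.29 in Sham (SD, n = 5), a difference of -0.87 (95% interval -1.36 to -0.38, adjusted p = 0.0420 in limma). Here 3 Sham cells and 1 HAL cell were too short to read. With a leading zero put back into those cells the Sham readings began at 10.06, the groups overlapped and the difference became -0.65 (adjusted p = 0.0650 in limma).

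These were 2 of the 5 probe sets near 10, against 3.97% of all probe sets called in this comparison and 2.68% called lower (1.29% higher). Readings of HAL and Sham did not overlap for 2.65% of probe sets, and for 2% with HAL lower. Both Nrp1 probe sets detect the same gene and are not separate evidence of a list moving. Both had 9 digits on 9 arrays, neither did on 10, and on the other 5 arrays this held for 1370570_at alone. Within groups their readings were not alike throughout, with r = 0.25 over 7 HAL arrays, 0.70 over 7 HEP arrays and -0.62 over 5 Sham arrays, as a description. Counted by digits alone, 1370570_at lay below 10 on 8 of 8 HAL and 0 of 8 Sham arrays (Fisher's exact p = 0.000155, two-sided), a split shared by 0.317% of the 2527 probe sets near 10. This is the same split that fixed the permutation p-value above, not a separate result. On 1373577_at the counts were 6 of 8 and 0 of 8 (Fisher's exact p = 0.00699, two-sided), where 4.91% of probe sets near 10 had more such cells in HAL at p under 0.05. Each of the 16 arrays could be left out without losing the call of 1370570_at (adjusted p 0.0196 to 0.0367 in limma). The call of 1373577_at was lost in 12 of 16 such fits (adjusted p 0.0313 to 0.109 in limma). Without the 3 arrays of the lowest median together the call of 1370570_at was lost, with a difference of -0.72 (adjusted p = 0.0618 in limma).

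**Figure D2:**
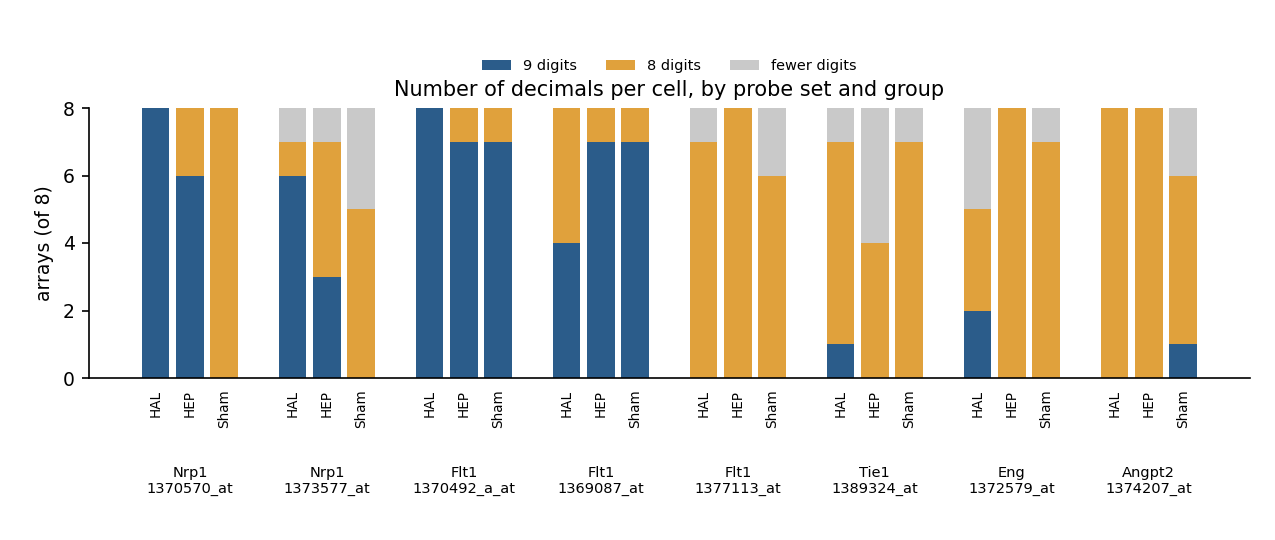
Number of arrays, of 8, on which each probe set has a cell of 9 digits (below 10), of 8 digits (10 or above, or a dropped zero) or of fewer digits, in HAL, HEP and Sham. Nrp1 1370570_at has 8, 6 and 0 cells of 9 digits in HAL, HEP and Sham, and Nrp1 1373577_at has 6, 3 and 0.

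In HEP microvessels Nrp1 lay mostly below Sham, but neither probe set passed. On 1370570_at the HEP readings were 9.29, 9.79 and 10.95 (lowest, median and highest of 8), against the Sham range of 10.11 to 10.67. All 6 arrays with 9 digits lay under the lowest Sham array, which the digits alone fix, since every Sham cell had 8 digits. HEP 6 and HEP 8, with cells of 8 digits, were read at 10.95 and 10.82, above every Sham array. The HEP mean was 9.95 ± 0.61, against 10.41 ± 0.18 in Sham (SD, n = 8 each), a difference of -0.46 (95% interval -0.85 to -0.08, adjusted p = 0.221 in limma). The result turns on those 2 cells, since a lost zero would give a signal under 10 the same 8 digits. Read as 9 plus their decimals they lie at 9.95 and 9.82, the HEP mean becomes 9.70 ± 0.22 (SD, n = 8), and the difference from Sham -0.71. This reading was tried after the values were seen and moved no Sham cell, so no test was drawn from it. On the other probe set HEP 6 could not be read, and HEP 8 read 10.75, the highest of the HEP arrays. By digits alone, 6 of 8 HEP arrays against 0 of 8 Sham arrays lay below 10 on 1370570_at (Fisher's exact p = 0.00699, two-sided, unadjusted). This is the same split that places those 6 readings under Sham, not a separate result. More cells of 9 digits in HEP at p under 0.05 were found for 3.01% of probe sets near 10.

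On 1373577_at the HEP readings ran from 9.29 through a median of 10.11 to 10.75 on 7 arrays, and overlapped with those of Sham. The difference from Sham was -0.36 (95% interval -0.85 to 0.13, adjusted p = 0.529 in limma), with 3 of 8 HEP and 0 of 8 Sham arrays below 10. Without HEP 4 it was -0.21. None of the 5 probe sets near 10 passed in HEP minus Sham, where 2.41% of all probe sets were called (1.32% higher, 1.09% lower). Only Nrp1 1370570_at of the 5 had an unadjusted p under 0.05 in limma. Both comparisons use the same Sham arrays.

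Whether Nrp1 differs between the models was tested directly. HAL minus HEP was -0.33 on 1370570_at (95% interval -0.72 to 0.06, adjusted p = 0.637 in limma) and -0.51 on 1373577_at (95% interval -0.96 to -0.06, adjusted p = 0.536 in limma). In this comparison 0% of all probe sets were called, also none of the 5, and 1373577_at and Angpt2 had an unadjusted p under 0.05 in limma. With the 8-digit cells of HEP read as 9 plus their decimals, the difference on 1370570_at was -0.08. Without single arrays it ranged from -0.43 to -0.19, nearest to 0 without HEP 6 (-0.19) and HEP 8 (-0.21). A call in HAL and none in HEP is thus no shown difference between the models.

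**Figure D3:**
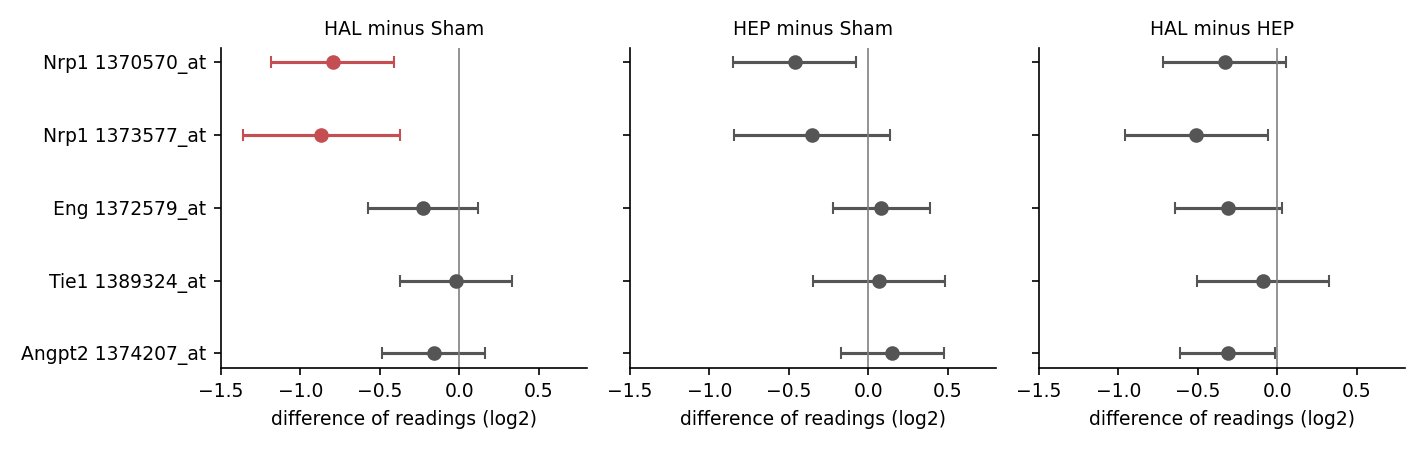
Difference between group means of readings (log2, horizontal axis) with its 95% interval from limma, for the 5 probe sets near 10 in 3 comparisons. Red marks an adjusted p under 0.05, which only both Nrp1 probe sets in HAL minus Sham reach.

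Nrp1 is the member whose change carries the result, so the stretch before its start is shown. The sequence is that of RefSeq on GRCr8, chr19:73256307-73256556, plus strand, 250 bases that end at the base before the annotated start, 5′ to 3′. Capitals mark GGAA or its reverse complement TTCC, the core that ETS factors bind, many of which act in endothelium.

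Nrp1 promoter: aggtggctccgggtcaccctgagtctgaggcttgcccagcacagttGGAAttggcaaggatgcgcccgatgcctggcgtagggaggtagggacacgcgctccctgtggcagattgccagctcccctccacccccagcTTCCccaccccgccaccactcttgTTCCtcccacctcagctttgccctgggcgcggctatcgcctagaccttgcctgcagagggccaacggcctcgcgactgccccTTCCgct

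It holds 4 matches on both strands together, and 93.2% of 33469 promoter windows of the same length hold at least 1, so the match is common. GC boxes (GGGCGG, both strands, in 30.5% of windows) and the core of the hypoxia element (ACGTG, both strands, in 16.6%) had 0 matches in these letters. In the windows of Flt1, Tie1 and Eng the ETS core matched 3, 4 and 3 times. The matches are a description of letters only.

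Flt1, the decoy-like receptor of VEGF-A, gave no difference that could be called. Its probe set without cells of 9 digits, 1377113_at, had decimals of 0.39, 0.54 and 0.64 (lowest, median and highest) on 7 HAL arrays. They were 0.33, 0.50 and 0.70 on 8 HEP arrays and 0.17, 0.53 and 0.91 on 6 Sham arrays. The decimals of HAL and HEP lay between the lowest and highest of Sham, which were the most spread. On a circle this cannot show a lack of change, since a change of a whole unit is invisible. An exact permutation test around the circle, which needs no direction, gave p = 0.196 for HAL against Sham, 0.379 for HEP against Sham and 0.774 for HAL against HEP, unadjusted. The widest empty arc of the circle, 0.257, missed the 0.3 needed to enter the fit. With 0.2 it entered, and the differences from Sham were 0.0005 in HAL (95% interval -0.19 to 0.19, adjusted p = 0.998 in limma) and 0.01 in HEP (95% interval -0.17 to 0.20, adjusted p = 0.975 in limma). These intervals hold only if no array moved by more than 0.5.

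**Figure D4:**
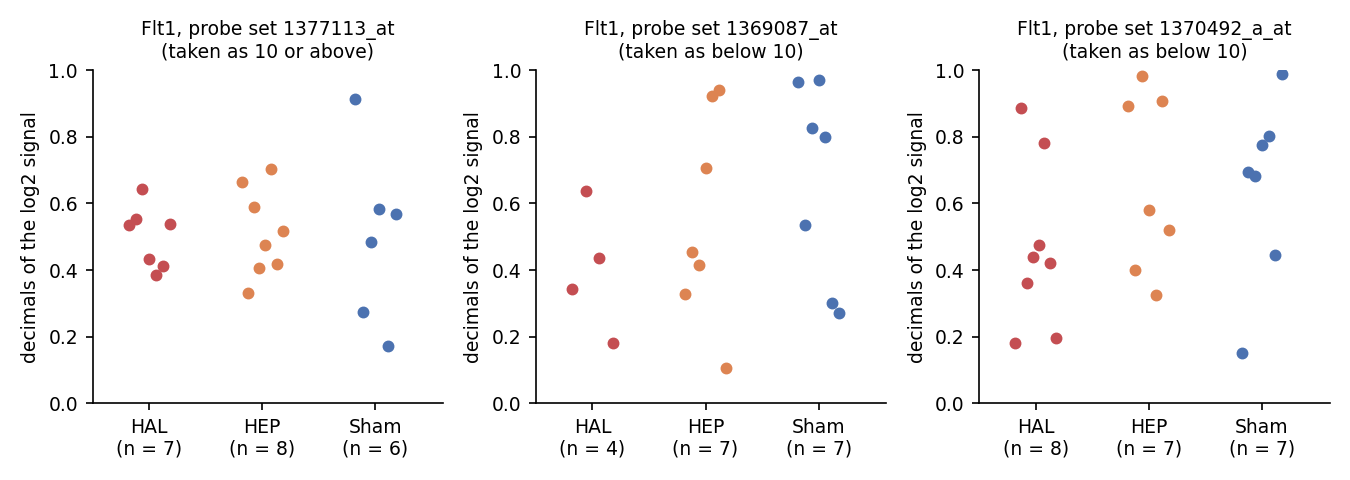
Decimals of the log2 signal (vertical axis, from 0 to 1, where both ends are the same point) for 3 Flt1 probe sets in HAL, HEP and Sham. On 1377113_at HAL lies between 0.39 and 0.64 and HEP between 0.33 and 0.70, between the lowest and highest Sham decimals. On a circle this cannot show a lack of change. The decimals of the probe sets below 10 fill most of the range.

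The Flt1 probe sets below 10, 1369087_at and 1370492_a_at, left empty arcs of 0.133 and 0.161 and could not be given a direction. Around the circle their exact permutation p-values lay between 0.193 and 0.841 over the 3 comparisons. On 1369087_at cells of 8 digits, which a signal of 10 or above or a dropped zero gives, were found on 4 of 8 HAL arrays, against 1 of 8 HEP and 1 of 8 Sham arrays. Cells of 9 digits numbered 4 in HAL against 7 in Sham, which did not pass (Fisher's exact p = 0.282, two-sided).

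Of the angiopoietin system, Angpt2 and Tie1 lay near 10. Angpt2, the ligand, read 10.16, 10.30 and 10.55 (lowest, median and highest) on 8 HAL arrays and 10.14, 10.65 and 10.99 on 8 HEP arrays. On 6 Sham arrays it read 9.96, 10.43 and 10.94. The HAL arrays were the tightest group and lay in the lower part of both other ranges, with overlap. Means were 10.33 ± 0.16 in HAL and 10.65 ± 0.28 in HEP (SD, n = 8 each), a difference of -0.31 (95% interval -0.61 to -0.02). This did not pass over all probe sets (adjusted p = 0.557 in limma), and the exact permutation test of this probe set alone gave p = 0.0179, unadjusted, among 15 such tests. The exact permutation test of the same comparison around the circle gave p = 0.0695, unadjusted. Against Sham, at 10.50 ± 0.36 (SD, n = 6), the differences were -0.16 in HAL (95% interval -0.48 to 0.16) and 0.15 in HEP (95% interval -0.17 to 0.47), with adjusted p = 0.641 and 0.727 in limma. Single arrays moved these, to -0.074 in HAL without Sham 1 and -0.27 without Sham 3, and to 0.24 and 0.043 in HEP without the same arrays. With a leading zero put back they were -0.10 and 0.21. Angpt2 had 1 cell of 9 digits among its 24, on Sham 3, an array with a low median. Its readings came close to 11, so its differences and p-values hold only if no signal reached 11.

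Tie1, the orphan partner of Tek, read 9.94, 10.70 and 10.94 (lowest, median and highest) on 7 HAL arrays and 10.41, 10.74 and 10.99 on 4 HEP arrays. On 7 Sham arrays it read 10.32, 10.72 and 10.95. The groups overlapped almost fully, apart from HAL 2, the array with the lowest median, which stood alone below 10. The differences from Sham were -0.02 in HAL (95% interval -0.38 to 0.33, adjusted p = 0.969 in limma) and 0.07 in HEP (95% interval -0.35 to 0.48, adjusted p = 0.927 in limma). In HEP 4 of 8 cells were too short to read, against 1 of 8 in both HAL and Sham. With a leading zero put back, HEP minus Sham turned to -0.19 (adjusted p = 0.706 in limma), and cells just above 11 would have the same digits, so the direction for Tie1 in HEP is not known.

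**Figure D5:**
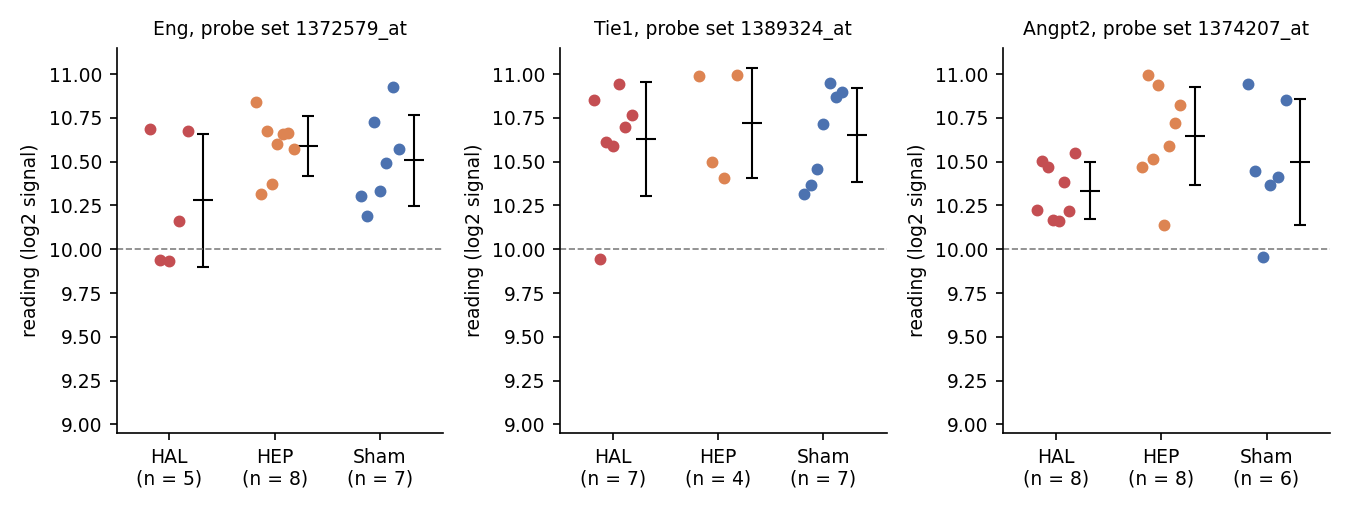
Readings of Eng, Tie1 and Angpt2 (log2 signal, vertical axis) on each array that could be read in HAL, HEP and Sham, with the mean and SD in black and the level of 10 dashed. The groups overlap for all 3 genes, with 2 HAL arrays of Eng, 1 of Tie1 and 1 Sham array of Angpt2 below 10.

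Eng, the TGF-beta and BMP co-receptor, read 9.94, 10.16 and 10.68 (lowest, median and highest) on 5 HAL arrays. It read 10.32, 10.63 and 10.84 on 8 HEP arrays and 10.19, 10.49 and 10.93 on 7 Sham arrays. Of the HAL arrays 3 lay below every Sham array and 2 within the Sham range. HAL minus Sham was -0.23 (95% interval -0.57 to 0.12, adjusted p = 0.524 in limma), HEP minus Sham 0.08 (95% interval -0.23 to 0.39, adjusted p = 0.869 in limma) and HAL minus HEP -0.31 (95% interval -0.65 to 0.03, adjusted p = 0.600 in limma). Without HAL 2 or HAL 4, HAL minus Sham was -0.14, and HEP minus Sham ranged from 0.029 to 0.15 without single arrays. The unread cells were uneven, with 3 of 8 in HAL, 0 of 8 in HEP and 1 of 8 in Sham. With a leading zero put back, HAL reached a mean of 10.20 ± 0.31 (SD, n = 8), against 10.51 ± 0.26 in Sham (SD, n = 7), and the difference was -0.31 (adjusted p = 0.264 in limma).

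Of the 5 probe sets with readings, HAL and Sham did not overlap on those of Nrp1, on 1373577_at only while its short cells were left out, and overlapped on the other 3. Over all 3398 probe sets, 1.12% had a HAL minus Sham difference as low as that of 1370570_at and 0.647% as low as that of 1373577_at. However, 872 of them were read by decimals with an empty arc of at least 0.3 and could not differ by so much. The 38 and 22 probe sets behind these shares thus came from the other 2526, among which Nrp1 was less rare than the shares show. For Eng, Angpt2 and Tie1 the shares over all 3398 were 20.7%, 27.8% and 51.8%.

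The partners of these genes in the same pathways were taken from a list of 73, of which 63 had a probe set and 15 could be read in the fit, on 16 probe sets. In HAL minus Sham 0 were called higher and 1 lower, with a median difference of -0.08, against -0.03 over all probe sets. In HEP minus Sham 1 was called higher and 1 lower, with a median of 0.03, against -0.01 over all. In HAL minus HEP 0 were called, with a median of -0.07, against -0.04 over all. Against 3.97% and 2.41% over all probe sets, 1 and 2 calls among 16 are no result about the list.

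Pik3ca, the catalytic subunit of a PI3-kinase that acts below VEGF receptors and Tek, was called lower in both models on 1 of its 2 readable probe sets. Its probe set 1379041_at, at 10 or above, differed from Sham by -0.30 in HAL (SE 0.08, adjusted p = 0.0273) and by -0.30 in HEP (SE 0.08, adjusted p = 0.0461, both in limma). Its decimals averaged 0.71 ± 0.14 on 8 HAL arrays and 0.70 ± 0.09 on 6 HEP arrays, against 1.01 ± 0.19 on 6 Sham arrays, counted past the whole number (SD). The ranges overlapped, from 0.52 to 0.88 in HAL and from 0.59 to 0.83 in HEP, against 0.74 to 1.21 in Sham. The other, 1393499_at, below 10, had differences of 0.04 in HAL and -0.004 in HEP (adjusted p = 0.916 and 0.997 in limma). Klf2, a transcription factor that laminar flow induces in endothelium, was called higher in HEP on 1376569_at, by 0.33 (SE 0.09, adjusted p = 0.0461 in limma). A further Klf2 probe set near 10, 1386041_a_at, had a difference of 0.34 in HEP, short of the threshold (adjusted p = 0.491 in limma). Among the Klf2 probe sets below 10, 1394068_x_at had 0.22 and 1386040_at had -0.05 in HEP (adjusted p = 0.206 and 0.897 in limma). Both calls were fragile. The call of Klf2 was lost in 12 of 16 fits without a single array, that of Pik3ca in 4 of 16 for HAL and in 10 of 16 for HEP.

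Of the list genes that did not pass, Smad5, a transducer of BMP signals that Eng modulates, had the smallest adjusted p, with a difference of -0.43 in HAL (adjusted p = 0.0738 in limma). Its readings were 9.71 to 10.32 on 7 HAL arrays, against 10.34 to 10.96 on 6 Sham arrays, and did not overlap, with 1 HAL and 2 Sham cells unread, where 2.65% of probe sets did not overlap. Its probe sets below 10 had -0.01 (1369276_at) and 0.09 (1378255_at) in HAL (adjusted p = 0.967 and 0.774 in limma). Ptprb, the endothelial phosphatase that acts on Tek, had differences of 0.24 in HAL and 0.23 in HEP (adjusted p = 0.119 and 0.131 in limma). Akt1, a kinase below PI3-kinase, had -0.21 and -0.20 on 1383126_at (adjusted p = 0.211 and 0.240 in limma), and 0.06 and 0.04 on 1375178_at, below 10 (adjusted p = 0.765 and 0.938 in limma). The other genes among the 8 with the smallest unadjusted p lay below 10 and were compared by decimals, besides Vegfa, given below. Angpt4, a Tek ligand, had decimals of 1.19, 1.37 and 1.54 (lowest, median and highest) on 5 HAL arrays and 0.93, 1.31 and 1.53 on 7 HEP arrays, against 0.84, 0.97 and 1.25 on 5 Sham arrays, counted past the whole number. The groups overlapped, and the differences were 0.32 in HAL and 0.26 in HEP (adjusted p = 0.133 and 0.298 in limma). Apln, the peptide ligand apelin, had -0.23 in HAL and -0.15 in HEP (adjusted p = 0.261 and 0.652 in limma). Plxna1, a semaphorin receptor that pairs with Nrp1, had -0.05 in HAL and -0.20 in HEP on 1374453_at (adjusted p = 0.827 and 0.375 in limma). Its other probe sets had -0.34 (1375482_at, near 10) and 0.07 (1395453_at) in HAL, and -0.27 and 0.03 in HEP, none past the threshold in limma. Bmpr2, a type II BMP receptor, had 0.12 in HAL and 0.18 in HEP on 1394667_at (adjusted p = 0.493 and 0.437 in limma), and -0.12 and -0.05 on 1376843_at, near 10 (adjusted p = 0.776 and 0.928 in limma).

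The main ligands and signalling receptors were poorly covered. Vegfa has 2 probe sets, both below 10, and 1370081_a_at could be compared by its decimals. Its difference from Sham was 0.21 in HAL (SE 0.07) and 0.12 in HEP (SE 0.06), and neither passed (adjusted p = 0.158 and 0.606 in limma over the 12282 probe sets below 10, of which 0.204% and 0.0244% were called). Angpt1, below 10, had -0.11 and -0.05 (adjusted p = 0.603 and 0.923 in limma). Kdr on 1397868_at, below 10, had -0.002 in HAL and 0.04 in HEP (adjusted p = 0.996 and 0.946 in limma). The probe sets of Kdr and Tek at 10 or above left too small an empty arc for the fit. With an arc of 0.2 Kdr had -0.12 in HAL (95% interval -0.39 to 0.16) and Tek -0.22 in HAL (95% interval -0.43 to -0.01) and -0.19 in HEP (95% interval -0.40 to 0.02), none past the threshold (adjusted p = 0.717, 0.255 and 0.407 in limma). Acvrl1, the signalling partner of Eng, had a probe set below 10 that could not be read.

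Other cell type markers were set beside the fall of Nrp1, since neurons and smooth muscle cells can also express this gene. Of the perivascular fibroblast markers, 3 probe sets were in the fit and 1, that of Col3a1, passed in HAL with a difference of -0.87 (adjusted p = 0.0319 in limma). That of Col1a2 had -0.83 (adjusted p = 0.0538 in limma), and that of Pdgfra had -0.07 (adjusted p = 0.756 in limma). In HEP those of Col3a1, Col1a2 and Pdgfra had -0.48, -0.61 and -0.14 (adjusted p = 0.313, 0.207 and 0.584 in limma). Of 5 endothelial probe sets 1 passed in HAL, Slco1a4, an anion transporter, with -0.35, and 1 in HEP, Slc2a1, the glucose transporter of the barrier, with 0.32 (adjusted p = 0.00670 and 0.0254 in limma). Slc2a1 had 0.16 in HAL and Slco1a4 had -0.19 in HEP (adjusted p = 0.296 and 0.156 in limma). Over all probe sets 3.97% were called in HAL and 2.41% in HEP. Single calls among 3 or 5 probe sets are no result about a cell type. Emcn, an endothelial sialomucin, had -0.34 in HAL and -0.24 in HEP (adjusted p = 0.0575 and 0.227 in limma). Cldn5, the tight junction claudin, had -0.005 in HAL (adjusted p = 0.987 in limma), and Tie1 is given above. None of 4 pericyte, 3 astrocyte, 3 neuron, 2 tip cell and 1 oligodendrocyte probe sets passed in either model, and smooth muscle, microglia and red cell markers had 0 in the fit. Summed marker levels could not be formed without the integer parts, and the part of fibroblast RNA in the Nrp1 result was not tested.

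By Pearson correlation of readings over the arrays both probe sets share, the genes most like Nrp1 1370570_at were Ctnnb1 (r = 0.81, 22 arrays), Tdrp (r = 0.79, 21 arrays) and Csk (r = 0.77, 20 arrays), of 1715 probe sets compared. Those most like Angpt2 were Dnase2b (r = 0.69, 20 arrays), Glg1 (r = 0.59, 21 arrays) and Cdca4 (r = 0.58, 22 arrays), of 959. Those most like Eng were Lars1 (r = 0.59), Abi1 (r = 0.57) and Hspa9 (r = 0.55), each over 20 arrays, of 205. The points of each pair come from the same arrays, so group differences and array-wide shifts enter every value. Tie1 had too few readings for this.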

How the data were processed

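RNA of 24 samples was hybridised to 1 array each. Per the submitters' processing notes the authors processed the arrays with RMA, a background correction and quantile normalisation on the log2 scale, of unnamed version. The deposited table holds whole numbers, taken as the decimals of those log2 values from which the integer part and any zeros at either end are missing. Per the labels' protocols the DNA was labelled with a kit for whole-transcript arrays, while the annotation is that of a 3′ expression array, and this was not resolved. Of 31099 probe sets 20832 had 1 gene symbol, 436 several and 9831 none. Of the first, 20764 matched a rat gene of GRCr8 by Entrez identifier, and 0 symbols changed.

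Of the probe sets, 1933 had no cell of 9 digits, 2527 lay near 10 and 26639 below. Readings near 10 were formed as described above. For the others the circle of decimals was cut at its widest empty arc, of at least 0.3, which kept 872 at 10 or above and 12282 below. At least 2 readings per group were needed, and 14.8% of cells in the fit were unread. All 24 arrays entered a model of 3 group means in limma 3.58.1 (R 4.3.3), with eBayes run for each kind of reading and Benjamini-Hochberg adjustment over the 3398 probe sets near or above 10. Those below 10 were fitted and adjusted apart. The code was tested on simulated data, and exact tests used Python 3.11.15 with scipy 1.17.1. Named genes are the 5, the list genes that passed, the next 8 by the smallest unadjusted p of any readable probe set, in either fit, 5 fixed partners (Vegfa, Kdr, Angpt1, Tek, Acvrl1) and, for each member, the 3 genes most like it. The members, lists and tests were chosen with earlier results of these data known. No depth applies to arrays, and their number limits the precision. No 2 columns were identical. Numbers in the labels did not pair the samples: deviations of samples with the same number correlated between -0.08 and 0.13.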

Additional observations from a re-analysis of the deposited data

Results flagged for a closer look

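A single value stood apart within its group by Dixon's criterion, out of 15 groups of readings examined, and chance marks about 1 group in 20. It was Tie1 on HAL 2, read at 9.94, the sole Tie1 cell of 9 digits. HAL 2 also had the lowest median deviation of all arrays (-0.13). Without it Tie1 in HAL minus Sham was 0.090, against -0.02 with it.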

How the results depend on the processing

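Nrp1 stayed lower in HAL than in Sham under every alternative that gave a difference, but the call did not always hold. A fit of decimals placed around the circle could not be made for Nrp1, Eng and Angpt2, and a range of 3 to 12 cells left out all but 1373577_at. For 1370570_at the call was lost without the 3 arrays of lowest median (-0.72). For 1373577_at the call was lost with a leading zero put back (-0.65) and without those 3 arrays (-0.79). It was also lost when adjusted over all readable probe sets (-0.87, adjusted p = 0.0846 in limma). The exact permutation test on the circle did not pass for 1370570_at (p = 0.0956) or 1373577_at (p = 0.754), both unadjusted. It leaves out the integer parts, so it cannot decide on differences near a whole unit. Leaving out single arrays gave -0.84 to -0.76 on 1370570_at and -0.95 to -0.76 on 1373577_at, whose call was lost in 12 of 16. The numbers in the labels did not pair the samples. With the replicate block the first call held (adjusted p = 0.0403 in limma) and the second had -0.86 (adjusted p = 0.119 in limma), and the calls over all probe sets were 83 in HAL, 54 in HEP and 3 in HAL minus HEP. In HEP, 1370570_at ranged from -0.61 to -0.37 without single arrays and passed without HEP 8 (adjusted p = 0.0428 in limma). It had p = 0.0347, unadjusted, in the exact permutation test on the circle, which leaves out the integer parts and gives no direction. Fisher's exact test, on the same digits that place its readings, had p = 0.00699, unadjusted. The difference of 1370570_at from Sham was -0.71 or -0.91 with the 8-digit cells of HEP alone read below 10, which gives no test. With the lower of these readings HAL minus HEP turned to 0.12.

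Over all probe sets, HAL minus Sham gave 84 calls with leading zeros put back, 36 read around the circle, and 85 to 142 without single arrays (85, 85 and 87 without HAL 4, Sham 2 and Sham 6). HEP minus Sham gave 183 with array weights, 51 adjusted over all readable probe sets, 54 with leading zeros, 29 around the circle, 46 without the 3 arrays, and 42 to 198 without single arrays. These were 46, 47, 42, 47 and 198 without HEP 4, 5, 6, 7 and 8. HAL minus HEP gave 1 with centred arrays, with an arc of 0.2 and around the circle, and 0 to 1 without single arrays.

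Differences near 0 changed sign. For Tie1 HAL minus HEP was 0.013 with array weights, 0.042 with the block, 0.17 with leading zeros, 0.052 around the circle and 0.023 without the 3 arrays. HAL minus Sham was 0.016 centred, 0.12 around the circle and 0.058 without the 3 arrays, and HEP minus Sham was -0.028 with array weights, -0.051 with the block and -0.19 with leading zeros. Without single arrays these ranged from -0.20 to 0.023, -0.080 to 0.090 and -0.023 to 0.17. Angpt2 in HEP minus Sham was -0.0068 without the 3 arrays. The cause of these changes was not tested. Leaving out the 3 arrays, Fisher's exact test and the other reading of the HEP cells were chosen after seeing the data.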
